A study of Rattus norvegicus with 12 samples.

Results

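Cell cycle and DNA replication genes were examined in the livers of 12 young male Wistar rats, an outbred laboratory strain. A set of 41 genes was read, 28 that act in mitosis and 13 that act in S phase, the stage of DNA copying. Of these, 39 had a probe set that the array's annotation assigns to a single rat gene, out of 14217 genes measured. The gene Tpx2 of the mitosis set and Rrm2 of the S phase set had no such probe set and were not analysed here. Where a gene had several probe sets, as 10 members did, the brightest on average was used. The rule that lists the members uses their names and no measured value, but they were chosen with earlier results of these data known.

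The rats were 5 weeks old per the labels, which do not say at which step. After 4 days on the purified AIN93G diet, 6 of the animals measured received this diet with 20% maple syrup and the other 6 received it with 20% of a sugar mix syrup of like sugar composition. Of 7 rats fed maple syrup and 8 fed the sugar mix, 6 of each diet were put on arrays, as separate animals. Feeding lasted 11 days, and all rats were fasted for 16 hours before the liver was taken. Whole liver was used, so fewer cells of a type and less RNA per cell cannot be told apart. Hepatocyte markers were at the top of the scale, with 11 of 12 listed genes measured and means between 14.06 and 15.21. The number of arrays limits the precision.

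In a dividing cell, cyclins switch on cyclin-dependent kinases, which first start DNA replication and then drive the cell into mitosis. Genes of S phase are largely controlled through E2F factors near the start site. Genes of mitosis are known to be controlled through a CHR element, bound by the DREAM and MuvB complexes, and through CCAAT boxes, bound by NF-Y. Adult hepatocytes rarely divide, while the liver of a young rat is still growing and its hepatocytes are still becoming polyploid.

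Promoters of both gene sets were set side by side first, since the known control of these sets differs. The stretches below are from RefSeq on GRCr8, in the direction of the gene, from 250 bases before the start to 50 bases after it. The capitals mark every match, on either strand, to CHR (TTTGAA or TTTAAA), to CCAAT, or to E2F (TTTCCCGC, TTTCGCGC, TTTGCCGC or TTTGGCGC). Cdkn3 and Mki67 are the mitosis genes, and Rrm1 the S phase gene, that followed their own group most closely. Mcm2 was added after the matches were seen, as the S phase gene highest in that order with an E2F match.
Cdkn3: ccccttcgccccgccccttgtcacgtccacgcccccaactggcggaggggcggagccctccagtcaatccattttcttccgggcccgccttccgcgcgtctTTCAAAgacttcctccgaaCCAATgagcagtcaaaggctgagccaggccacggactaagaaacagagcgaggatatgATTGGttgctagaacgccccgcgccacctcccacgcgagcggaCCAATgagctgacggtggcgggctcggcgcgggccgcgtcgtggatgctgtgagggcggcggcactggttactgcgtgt
Mki67: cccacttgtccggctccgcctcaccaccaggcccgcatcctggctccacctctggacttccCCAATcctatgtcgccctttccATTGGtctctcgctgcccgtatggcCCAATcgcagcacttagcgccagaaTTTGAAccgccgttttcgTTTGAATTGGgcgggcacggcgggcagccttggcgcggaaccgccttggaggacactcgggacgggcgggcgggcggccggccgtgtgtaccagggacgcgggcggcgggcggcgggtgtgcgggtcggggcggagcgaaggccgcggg
Rrm1: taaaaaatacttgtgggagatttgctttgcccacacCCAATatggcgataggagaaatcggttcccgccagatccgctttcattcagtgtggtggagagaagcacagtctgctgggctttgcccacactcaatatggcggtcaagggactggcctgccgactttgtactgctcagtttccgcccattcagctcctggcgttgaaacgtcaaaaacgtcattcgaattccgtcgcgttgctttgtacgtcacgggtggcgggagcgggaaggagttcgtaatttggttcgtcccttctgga
Mcm2: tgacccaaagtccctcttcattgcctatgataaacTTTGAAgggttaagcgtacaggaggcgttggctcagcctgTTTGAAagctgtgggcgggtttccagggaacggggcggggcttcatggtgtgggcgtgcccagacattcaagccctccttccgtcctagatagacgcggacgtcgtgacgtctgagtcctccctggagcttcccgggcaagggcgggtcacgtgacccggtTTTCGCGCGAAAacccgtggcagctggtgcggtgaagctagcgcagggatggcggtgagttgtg

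The Cdkn3 window lies at chr15:22502136-22502435 on the plus strand and the Mki67 window at chr1:199952544-199952843 on the minus strand. Cdkn3 had 1 CHR match, at position -149 from the start, between which and the start lay 3 CCAAT matches. Mki67 had 2 CHR matches, at -117 and -99, and 4 CCAAT matches, of which 1 shares letters with a CHR match. The Rrm1 window, at chr1:166235654-166235953 on the plus strand, held 1 CCAAT match and none to the other letters. Mcm2, at chr4:122918045-122918344 on the minus strand, held a palindromic stretch at which the E2F letters match on both strands, at -14 and -10, and also 2 CHR matches farther from the start.

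Over all members, the 2 groups differed in CHR and E2F letters, and less in CCAAT. A promoter was found for 34 of the 41 members. CHR letters were in 21 of 23 mitosis promoters (91.3%), against 19.8% of the promoters of 11733 measured genes and 27.9% of all 27457 promoters in the table. The mitosis genes without them were Melk and Cdca3. CCAAT was in 18 of the 23 (78.3%) and in 7 of 11 S phase promoters (63.6%), against 37.3% of measured genes, so it was common in both groups. In the mitosis set 17 held both CHR and CCAAT (73.9%, against 7.82% of measured genes), and none of the S phase set did. An E2F match was in 8 of 11 S phase promoters (72.7%) and in 1 of 23 mitosis promoters (4.35%), that of Cdk1, against 3.64% of measured genes. Matches are a description of these letters in this window and were not tested as binding sites. The same order was seen in genes of the pathway that are not members: CHR letters were in 29 of 39 other mitosis genes and 9 of 42 other S phase genes, CCAAT in 26 of 39 and 23 of 42, and E2F letters in 1 of 39 and 20 of 42.

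**Figure D1:**
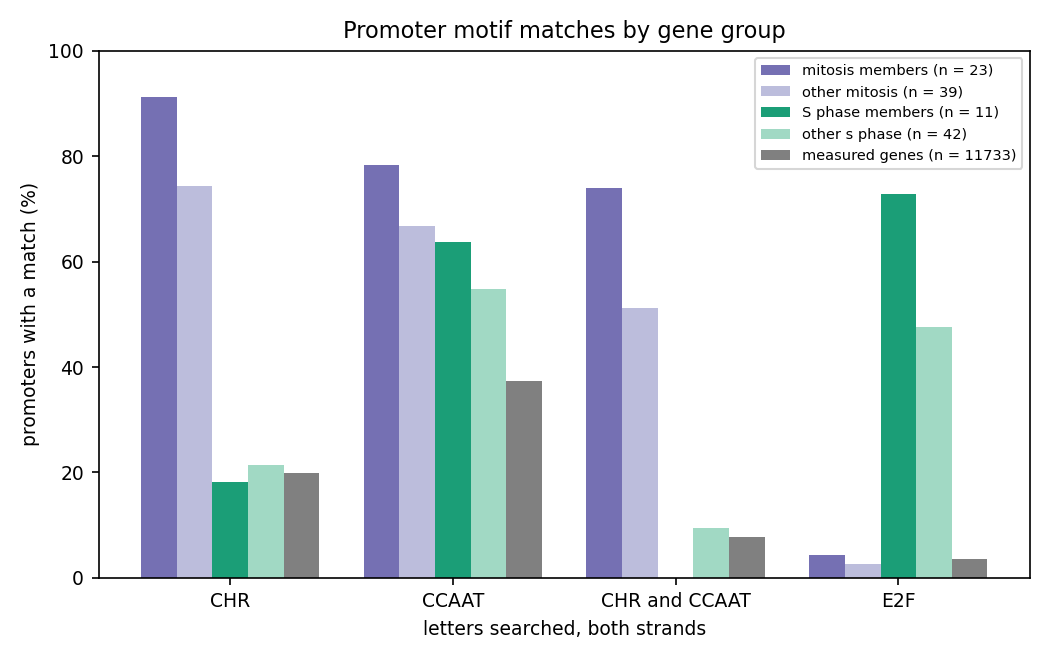
Share of promoters (%, vertical axis) with a match to the letters named on the horizontal axis, for mitosis and S phase members, for other genes of the same phases, and for all measured genes. CHR letters were in 91.3% of mitosis members and 18.2% of S phase members, and E2F letters in 4.35% and 72.7%.

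The deposited values are a score with levels like log2 intensities but with very small differences between arrays, so levels are described and no fold change is given. Mitosis genes had low levels, with means between 6.35 (Ttk, a kinase of the spindle checkpoint) and 7.89 (Tacc3, which stabilises spindle microtubules). All 27 were below the median level of the 14217 genes, at a median percentile of 25.4. For 6 olfactory receptor genes, which serve smell, the means ran from 5.89 to 7.12, and 12 of the 27 mitosis genes were above the highest of them. Levels of different probe sets depend on the probes as well as on the transcript, so these ranks do not order the transcripts.

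S phase genes were spread more widely in level. Pcna, the sliding clamp of DNA polymerase that also serves DNA repair, had a mean of 10.54, at percentile 89.9. Mcm7, a subunit of the MCM helicase that unwinds DNA, had 8.48, at percentile 60.9. The other 10 were below the median of all genes, down to 6.81 for Mcm6, another subunit of the same helicase.

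Although low in level, mitosis genes were among the most variable on the array. The median standard deviation (SD) of a gene over the 12 livers was 7.35e-06 in the deposited score. For 15 of the 27 mitosis genes the SD lay above the 90th percentile of all genes, which is 8.03e-05, and their median percentile was 92.7. For S phase genes the median percentile was 69.9, and 1 of 12 lay above the 90th. How the score scales differences in each probe set is not known, so widths of spread were not compared further.

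The 6 members with the widest spread were Cdkn3, Ccna2, Chek1, Mki67, Cdk1 and Ccnb2. Cdkn3 encodes a phosphatase that acts on cyclin-dependent kinases, and its score ran from 6.93776 to 6.9673. Ccna2, the cyclin of S and G2 phase, ran from 6.54904 to 6.55694, and Mki67, the gene of the proliferation marker Ki-67, ran from 7.34981 to 7.3527. In all 5 of these genes that belong to mitosis, the highest liver was the same animal, sugar mix replicate 4. Chek1, the S phase checkpoint kinase, ran from 7.49637 to 7.50022 and was highest in another animal, maple syrup replicate 1.

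To set genes side by side, each was expressed as the deviation from its own mean in units of its SD over the 12 livers. This scale leaves correlations unchanged. In Mki67 the sugar mix livers ran from -1.11 through a median of -0.30 to 2.20, and the maple syrup livers from -0.97 through -0.02 to 1.40. Cdk1, the kinase that starts mitosis, ran from -1.09 through -0.29 to 2.23 with sugar mix and from -0.83 through -0.02 to 1.16 with maple syrup. Ccnb1, its partner cyclin B1, ran from -0.92 through -0.21 to 2.16 with sugar mix and from -1.42 through 0.05 to 1.15 with maple syrup. In all 3 genes the diets overlapped and the highest liver was a sugar mix liver. Ranked by liver, Mki67, Cdk1 and Ccnb1 had a Spearman rho of 0.99, 0.92 and 0.98 with the mean of the other mitosis genes.

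Most mitosis members varied together over the 12 livers. Over the 351 pairs of mitosis genes the mean Pearson correlation was 0.72 (SD 0.29 over pairs), and 297 pairs (84.6%) were over 0.5. Of all 101054436 pairs of genes, 6.42% were over 0.5, with a mean of 0.01. Among the 1422 genes with the widest spread, of any function, the mean was 0.00, and 8.36% of pairs were over 0.5. Among the 15 mitosis genes above the 90th percentile of spread the mean was 0.90, and all 105 pairs were over 0.5. Within the mitosis set, wide spread thus went with closer correlation. The reason was not tested. Genes are not independent replicates, so these values are descriptions without a p.

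By role, the closest were Cdk1, Ccnb1, Ccnb2, Ccna2 and Cdkn3, with a mean correlation of 0.95 over 10 pairs and a lowest of 0.93. Mki67 and Top2a, the topoisomerase that untangles chromosomes, had a correlation of 0.94. Cdc20 and Ube2c, which act with the ubiquitin ligase that ends mitosis, and Cdca3, grouped with them here, had a mean of 0.91 over 3 pairs. The chromosomal passenger complex (Aurkb, Birc5 and Cdca8), which corrects the attachment of chromosomes, had 0.76 over 3 pairs. Kinases of mitosis and its checkpoint (Bub1, Bub1b, Ttk, Melk, Plk1 and Aurka) had 0.69 over 15 pairs. Motors and other spindle genes were the most uneven group, with a mean of 0.50 over 28 pairs and a lowest value of -0.18.

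A mitosis score, the mean of the 27 standardised genes, was then set against each gene, with that gene left out of the score. By this measure 22 of 27 were over 0.8 and 16 over 0.9, and the median was 0.91. Cdkn3 and Mki67 had the highest values (both 0.98), followed by Ccnb1 (0.97) and Cdk1 (0.97). The lowest were Kif11 (-0.04), the motor that pushes spindle poles apart, and Kif2c (0.19), which shortens microtubules. Ttk had 0.69, Bub1b 0.74 and Birc5, which encodes survivin, 0.76.

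Both exceptions depended on the probe set. Kif11 and Kif2c were read from a probe set of narrow spread, at percentiles 15.9 and 36.1. Their second probe sets, of lower mean and wider spread, had correlations with the score of 0.67 for Kif11 and 0.87 for Kif2c, and only 0.23 and 0.20 with the probe set used. Second probe sets of other members were closer to the used ones, at 0.98 for Ccnb1, 0.87 for Racgap1, which organises the dividing cell's midzone, 0.81 for Nusap1, 0.80 for Top2a, 0.59 for Ttk, 0.51 for Tacc3 and 0.35 for Gmnn. Among 5 probe sets of Cdc20, the 4 not used had correlations of 0.42 to 0.88 with the one used.

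**Figure D2:**
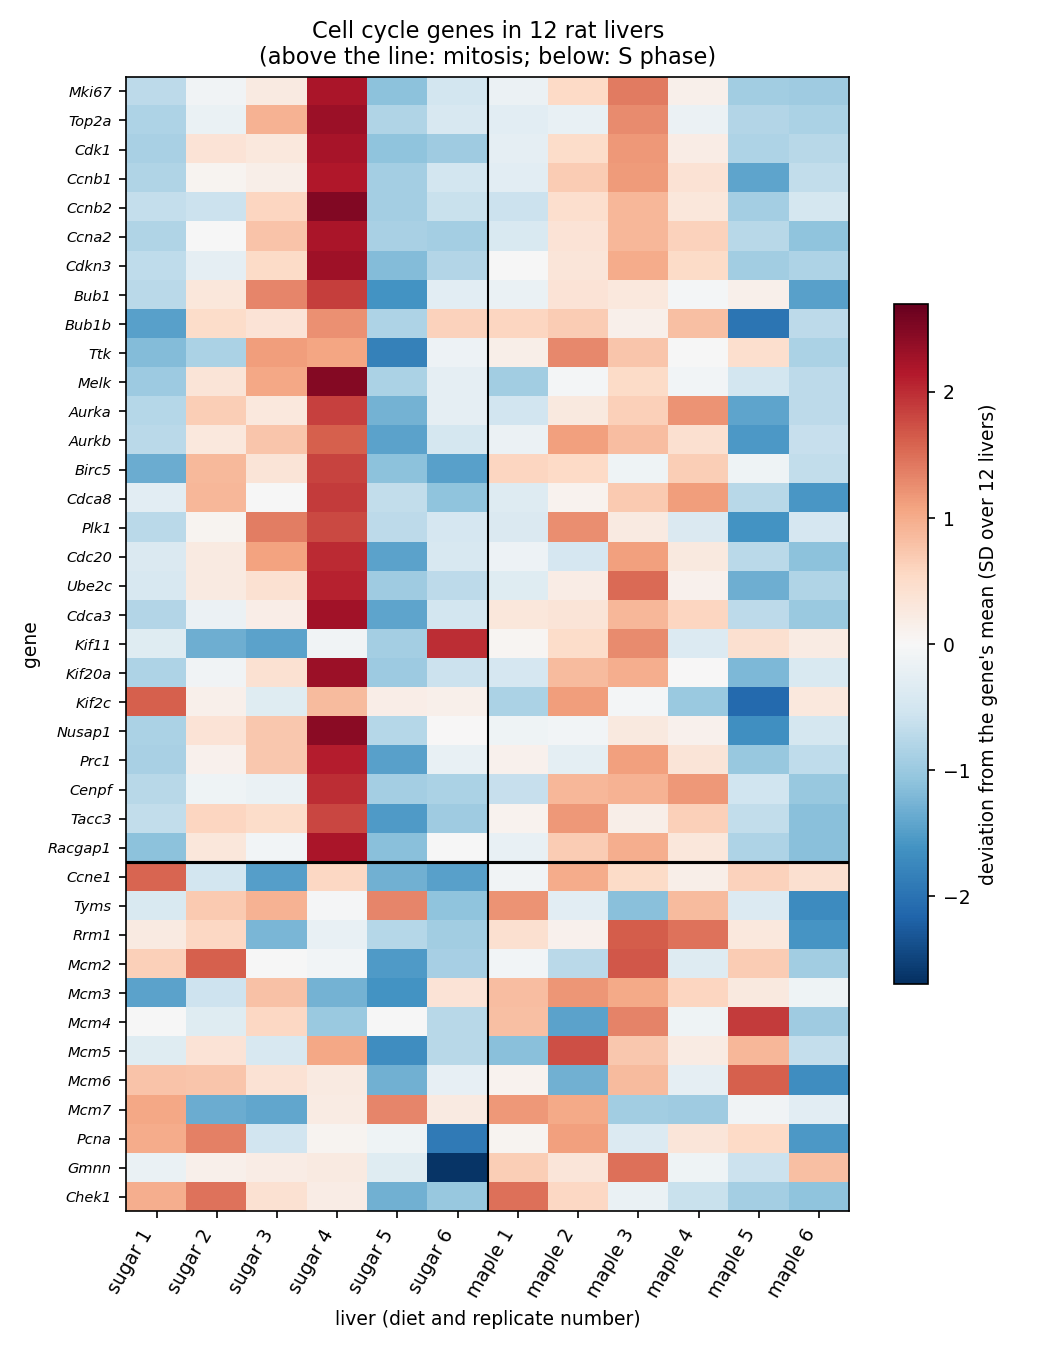
Deviation of each member (rows) from its own mean in each of the 12 livers (columns), in SD units, with mitosis genes above the black line and S phase genes below it. Sugar mix replicate 4 is the highest liver for 24 of 27 mitosis genes, and S phase genes show no such shared column.

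Sugar mix replicate 4 was the highest liver for 24 of the 27 mitosis genes, with a mitosis score of 1.91. The other sugar mix livers had scores between -1.06 (replicate 5) and 0.45 (replicate 3). In the maple syrup group the scores ran from -0.90 (replicate 5) through a median of 0.05 to 0.78 (replicate 3). Sugar mix replicate 5 and maple syrup replicate 5 were each the lowest liver for 10 of the 27 genes. The order of the livers was thus shared by most mitosis genes, and each diet held livers near its upper and lower end.

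The shared order was also present without the highest liver. Without sugar mix replicate 4 the mean pair correlation of mitosis genes was 0.63, and 17 of 27 genes were over 0.8 with the score. With quantile normalization, which leaves 964 genes constant on this scale, the mean was 0.50 and 10 of 27 genes were over 0.8. With diet means subtracted the mean was 0.73. With each array centred on its median the mean was 0.69, but all pairs of genes then had a mean of 0.72, so mitosis genes did not exceed other genes by this measure. With that centring 19 of the 27 were over 0.8 with the score, and the median r with the score was 0.86 for mitosis genes and 0.49 for all genes.

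S phase genes did not share an order to this degree. Over their 66 pairs the mean correlation was 0.19 (SD 0.29 over pairs), and 8 pairs (12.1%) were over 0.5, against the 6.42% of all pairs. None of the 12 was over 0.8 with the mean of the others. Rrm1, the large subunit of ribonucleotide reductase, which makes the building blocks of DNA, had the highest value (0.72), then Pcna (0.69) and Mcm2 (0.67). Tyms, the thymidylate synthase, had 0.07, and Mcm7 had -0.26.

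The 6 MCM genes encode subunits of a single ring-shaped helicase, yet their 15 pairs had a mean correlation of 0.11. Mcm2 and Mcm6 had the highest, at 0.82, and Mcm4 and Mcm6 had 0.70. Mcm7 had negative values with the other 5, down to -0.51 with Mcm2. In Mcm2 the sugar mix livers ran from -1.54 through -0.05 to 1.61 and the maple syrup livers from -0.93 through -0.21 to 1.68. In Mcm7 they ran from -1.40 through 0.24 to 1.32 and from -0.97 through -0.19 to 1.16. The diets overlapped in both genes, and sugar mix replicate 5 was the lowest liver for Mcm2 and the highest for Mcm7.

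Mitosis and S phase members were only loosely related. Over the 324 pairs of a mitosis and an S phase gene the mean correlation was 0.13, and 23 pairs (7.10%) were over 0.5, close to the 6.42% of all pairs. Without sugar mix replicate 4 the mean was 0.19, and 57 pairs (17.6%) were over 0.5, against 7.43% of all pairs of genes. The mitosis and S phase scores, each the mean of its genes, had a Pearson r of 0.31 and a Spearman rho of 0.24 over the 12 livers. This r was 0.45 with quantile normalization and 0.53 with each array centred on its median. With that centring all pairs of genes had a mean correlation of 0.72. Pairs of a mitosis and an S phase gene then had 0.36. Without sugar mix replicate 4 the 2 scores had an r of 0.45. Without the 2 livers farthest from the median mitosis score, sugar mix replicates 4 and 5, r was 0.32 and rho 0.19. Within the diets r was 0.30 in the 6 sugar mix livers and 0.47 in the 6 maple syrup livers. With the other mitosis and S phase lists, described below, in place of the members, r was 0.60 over the 12 livers. That alternative was chosen after seeing the data. No p is given, since the scores rest on genes chosen as members. Array medians had an r of -0.00 with the mitosis score and 0.37 with the S phase score.

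**Figure D3:**
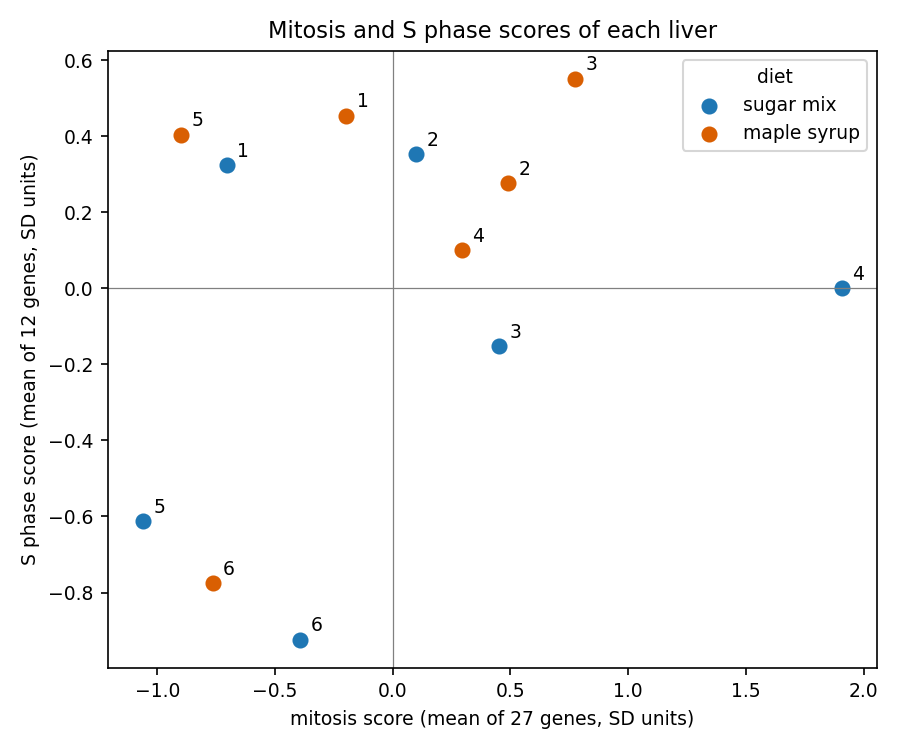
Mitosis score (horizontal) against S phase score (vertical), both in SD units, with a point for each liver coloured by diet and numbered by replicate. Sugar mix replicate 4 has the highest mitosis score (1.91) and an S phase score of 0.00, and the replicates numbered 6 have low S phase scores in both diets.

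Among single S phase genes, Mcm5 had the highest correlation with the mitosis score (0.59), and Chek1 and Gmnn, which encodes geminin, an inhibitor of repeated replication, had 0.33 each. Chek1, Mcm7 and Mcm4 had the widest spread of the S phase genes, at percentiles 98.2, 87.1 and 86.3, and their correlations with the mitosis score were 0.33, -0.32 and -0.23. In the liver with the highest mitosis score, the S phase score was 0.00. The lowest S phase scores were those of sugar mix replicate 6 (-0.92) and maple syrup replicate 6 (-0.77), with mitosis scores of -0.39 and -0.76.

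Genes of the pathway outside the members were read from lists of other mitosis genes (44 of 52 measured), other S phase genes (49 of 56) and genes of G1 phase and inhibitors (28 of 30). Like the members, these lists were chosen with earlier results of these data known, so they are not an independent check. Of the 14178 genes that are not members, 69 (0.487%) had a correlation over 0.8 with the mitosis score, and 18 of the 44 other mitosis genes did. Without sugar mix replicate 4 these counts were 54 (0.381%) and 11, and with quantile normalization 7 of the 44 did. Only Chaf1b, of a histone chaperone that follows the replication fork, did so among the other S phase genes, and none among those of G1 phase and inhibitors. Single genes of the other mitosis list were less closely related than the members. Over their 946 pairs the mean correlation was 0.39, with 42.5% over 0.5 and 14.3% under 0. The mean of the other mitosis list had an r of 0.99 with the mitosis score (rho 0.97), and 0.98 without sugar mix replicate 4. The mean of the other S phase list had 0.58 (rho 0.61), and an r of 0.67 with the S phase score.

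The 10 genes outside the members with the pattern most like the mitosis score were Shcbp1 (r = 0.99), Ect2 (0.99), Cenpk (0.96), Pttg1 (0.95), Knstrn (0.95), Sertad3 (0.94), Sgo1 (0.94), Depdc1 (0.93), Stil (0.93) and Plekhn1 (0.92), each over 12 livers. Ect2 starts the furrow that divides the cell, Pttg1 encodes securin, which keeps sister chromatids from separating before anaphase, and Sgo1 protects their cohesion. Without sugar mix replicate 4 their correlations were 0.85 to 0.98. The spread of Plekhn1 was at percentile 3.58, unlike that of the other 9, all at 69.1 or above. For the S phase score the 10 most alike were Crat (0.92), LOC102552722 (0.90), Snapc1 (0.90), Slc22a5 (0.90), Hsdl2 (0.89), Wdr25 (0.88), Hgh1 (0.88), Ppcs (0.88), Arpc5 (0.88) and Cnot2 (0.88). None of these 10 is on the lists of the cell cycle. In all, 50 of the 14178 genes (0.353%) were over 0.8 with the S phase score, and none of its 12 members was. At so small a share, none of 12 says little about the members. Their median r with this score, which contains them, was 0.56, against 0.04 for all genes. Crat, carnitine acetyltransferase, and Slc22a5, the carnitine carrier, act in the handling of fatty acids.

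**Figure D4:**
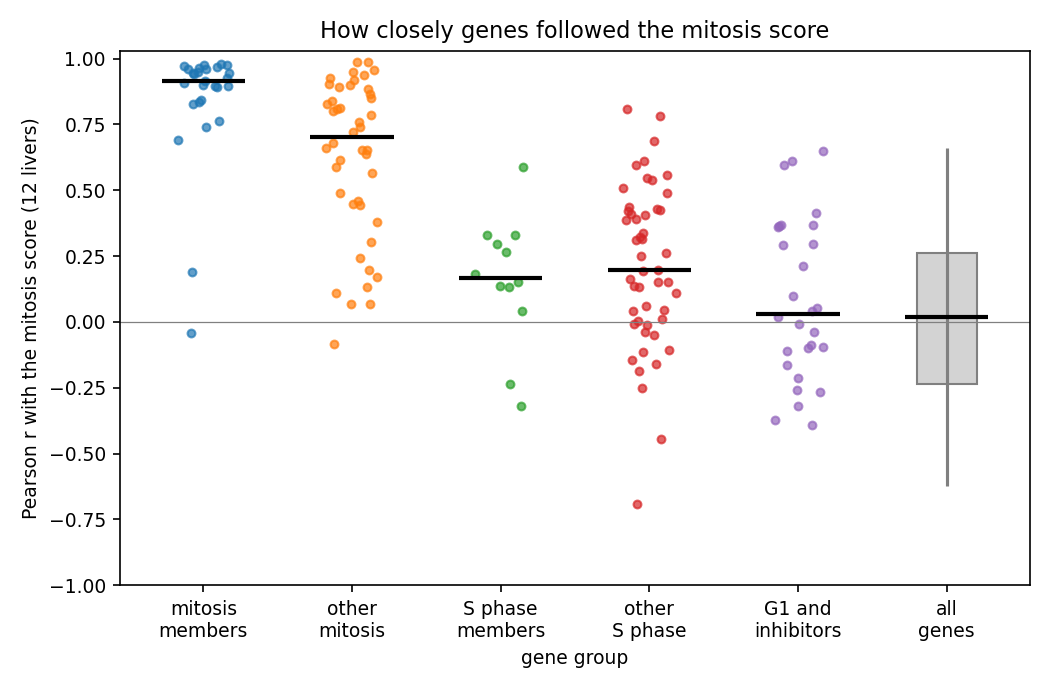
Pearson r with the mitosis score over 12 livers (vertical axis) for each gene of 5 groups (points, with the median as a bar), each member being left out of its own score, and for all 14217 genes (box for the middle 50%, line for the middle 95%). The medians are 0.91 for mitosis members, 0.70 for other mitosis genes and 0.17 for S phase members.

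Markers of other cells in liver were read beside the mitosis score, since blood-forming, immune and vascular cells can also divide. Over 9 lists of cell markers and a list of genes that respond to tissue handling, the correlation of the list's mean with the mitosis score lay between -0.40 (stellate cells and fibroblasts) and 0.51 (neutrophils and marrow cells). None of the markers was over 0.8. All 7 measured neutrophil and marrow markers were below the median level of all genes, with list means from -0.84 to 0.81 in sugar mix livers and from -1.14 to 1.21 in maple syrup livers. The 15 stellate and fibroblast markers had list means from -0.66 to 0.76 and from -1.48 to 0.93. Erythroid and blood markers, with 13 of 19 measured, had an r of 0.30, hepatocyte markers -0.17, and Kupffer cell and macrophage markers -0.20. Without sugar mix replicate 4 the stellate list had an r of -0.77, the Kupffer cell and macrophage list -0.47, the erythroid list 0.50 and the neutrophil list 0.58. The part of these cells in the mitosis score was not tested.

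The comparison of the diets asks whether maple syrup changed these genes against a syrup of like sugars. None of the 39 members was called: with limma and Benjamini-Hochberg adjustment over all genes at an adjusted p of 0.05, 0 of 39 passed, as did 0 of 14217 genes (0%). At an unadjusted p of 0.05 there was 1 member of 39, against 616 of all genes (4.33%). That member was higher with maple syrup, as were 297 genes (2.09%), and no member was among the 319 lower genes (2.24%). In an exact permutation test of each gene, 0 genes passed after adjustment and 607 (4.27%) were under 0.05 before it. The diets did not separate without overlap in any member, against 14 of all genes (0.0985%). Effects are given as Hedges' g, which is the maple syrup mean less the sugar mix mean, divided by the SD among animals, with a 95% interval and 6 livers per diet.

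Among mitosis genes 8 were higher and 19 lower with maple syrup, with a median g of -0.10, against -0.04 over all genes, of which 47.1% were higher. The 4 genes that followed the score most closely had g of 0.02 (-1.03 to 1.06) for Cdkn3, -0.00 (-1.05 to 1.04) for Mki67, -0.05 (-1.09 to 1.00) for Ccnb1 and 0.01 (-1.03 to 1.05) for Cdk1. Over all 16 genes with a correlation over 0.9, g ran from -0.60 for Nusap1 to 0.13 for Cdca3. The intervals of the 4 genes that followed the score most closely do not exclude a difference of about 1 SD in either direction. The lowest g were those of Kif2c at -0.85 (-1.94 to 0.28), Nusap1, a spindle protein, at -0.60 (-1.66 to 0.49), and Melk, a mitotic kinase, at -0.55 (-1.61 to 0.54). At the other end were Kif11 at 0.66 (-0.44 to 1.73) and Ttk at 0.55 (-0.53 to 1.61). For Nusap1 and Melk, g was -0.29 and -0.21 without sugar mix replicate 4. Without maple syrup replicate 5 it was -0.37 for Nusap1, without sugar mix replicate 1 it was -0.82 for Melk, and without maple syrup replicate 2 it was -1.33 for Kif2c. The second probe set of Kif2c had g = -0.01 and that of Nusap1 -0.08. Without sugar mix replicate 4 the median g of the mitosis genes was 0.36, and it was also above 0 without maple syrup replicate 5 (0.09) or 6 (0.04).

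Among S phase genes 8 were higher and 4 lower, with a median g of 0.28. Mcm3, a subunit of the helicase, had the highest g of all members, at 1.46 (0.21 to 2.65). Setting each maple syrup rat against each sugar mix rat, Mcm3 was higher with maple syrup in 31 of 36 such pairs. In Mcm3 the sugar mix livers ran from -1.62 through -0.92 to 0.78 and the maple syrup livers from -0.13 through 0.71 to 1.19, so the diets overlapped. Its limma p was 0.0216 before adjustment and 0.9999 after it, and its exact permutation p, unadjusted, was 0.0303. The diet means of Mcm3 differed by 3.65e-06 in the score, its spread was at percentile 20.9, and g was 0.21 with quantile normalization and 0.28 with each array centred on its median.

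Ccne1, cyclin E1, which opens S phase, had g = 0.87 (-0.26 to 1.97), Gmnn 0.85 (-0.28 to 1.94) and Rrm1 0.74 (-0.37 to 1.82). At the other end was Tyms, at -0.43 (-1.49 to 0.64). Single livers moved these values: g was 1.79 for Ccne1 without sugar mix replicate 1 and 1.52 for Rrm1 without maple syrup replicate 6. For Tyms it ran from -0.75 without maple syrup replicate 1 to -0.18 without maple syrup replicate 6. With quantile normalization Ccne1 had g = -0.37. The second probe set of Gmnn had g = 0.37. These 4 intervals include 0, and the other MCM genes ran from -0.19 for Mcm6 to 0.55 for Mcm5. Without maple syrup replicate 5 the median g of the S phase genes was 0.09, and without maple syrup replicate 6 it was 0.53.

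Other genes of the cell cycle did not pass either, with 0 higher and 0 lower in each of the 3 lists. Before adjustment, 0 of 44 other mitosis genes, 2 of 49 other S phase genes and 1 of 28 genes of G1 phase and inhibitors had a limma p under 0.05. The median g was 0.04, 0.00 and 0.19. Rb1, the retinoblastoma protein that holds E2F in check, had g = 1.40 (0.16 to 2.58), and the inhibitor gene Cdkn2a 1.23 (0.04 to 2.38). Gadd45a, a growth arrest gene, had g = 1.06 (-0.10 to 2.18), and Ccnd2, cyclin D2, 1.01 (-0.15 to 2.12). Pold3, a subunit of DNA polymerase delta, had 1.27 (0.06 to 2.42), and Orc6, of the origin recognition complex, -1.18 (-2.32 to 0.0035). In the other mitosis list Ncaph, of condensin, had -1.11 (-2.24 to 0.06). All had an adjusted p of 0.9999 and were named for their small p, for which the intervals make no allowance.

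**Figure D5:**
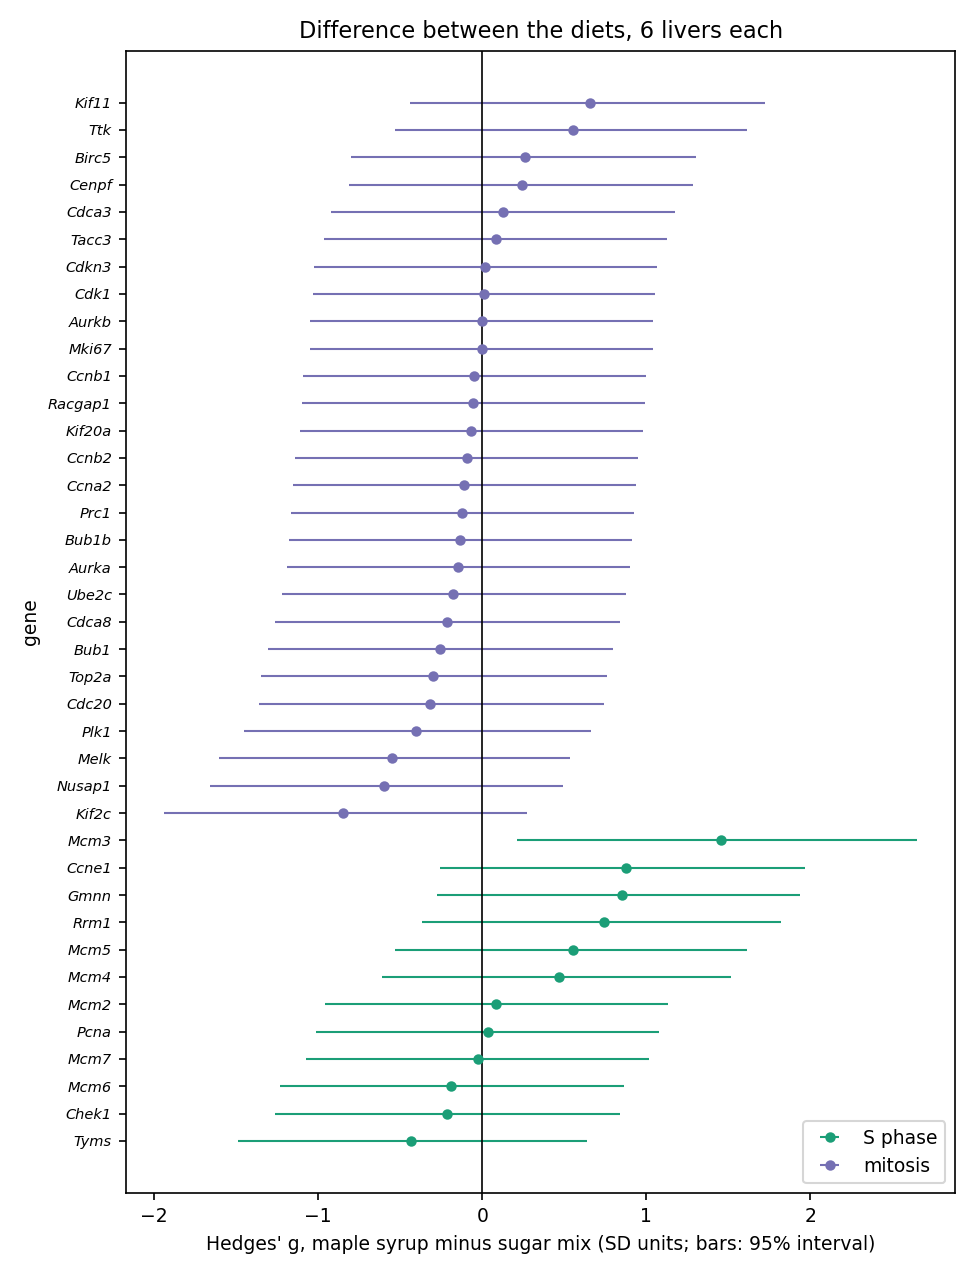
Hedges' g (horizontal axis, SD units) of each member between the diets, with its 95% interval as a bar, for 6 livers of each diet; mitosis genes stand above S phase genes. Only the interval of Mcm3 (0.21 to 2.65) excludes 0, before any allowance for the 39 genes shown.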

How the data were processed

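Total RNA of 12 rat livers, 2 ug each, went onto Affymetrix arrays, as the labels' protocols say. The deposited table gives the authors' processed score for 31099 probe sets, with levels like log2 intensities; how it was summarised and normalised is not given in the sources used here. Array medians lay between 7.36619 and 7.36632. Names came from the platform's annotation (20832 with 1 symbol, 436 with several, 9831 unnamed here), and 57 control probe sets were left out. No filter or further normalization was applied. The labels call the arrays biological replicates and give no batch.

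Diets were compared over 14217 genes by limma (version 3.58.1, R version 4.3.3) with a mean-level trend in eBayes, two-sided, adjusted by Benjamini-Hochberg. The exact permutation test, two-sided, used all 924 arrangements and cannot give a p under 0.002165. The other values were computed with numpy 2.4.6 and scipy 1.17.1. Because the values are a score, the difference is given as Hedges' g with an interval from the noncentral t distribution.

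Members and lists were chosen with earlier results of these data known. Named outside the members, by rule, were the 10 genes most like each score and up to 4 with the smallest p in each pathway list. The steps were tested on simulated data. Alternatives were 2 normalizations, 2 treatments of low values, 2 rules for probe sets, 3 variance models, the exact test, the replicate block and each array left out, and, for correlations, Spearman's rho and diet means subtracted.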

Additional observations from a re-analysis of the deposited data

Results flagged for a closer look

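Each of the 39 genes and 2 scores was looked at within each diet, 82 sets of 6 livers. In 6 sets a single liver stood apart by Dixon's test, which flags about 1 in 20 by chance, or 4.1 of 82. Many of the genes are correlated and the scores are means of them, so the sets are not independent. How far the count can stray from 4.1 by chance is thus not known. In SD units, Ccnb1 was at 2.16 in sugar mix replicate 4 (next highest 0.15), and Cenpf, a kinetochore gene, at 2.00 in the same liver (next highest -0.12). Top2a was at 1.28 in maple syrup replicate 3 (next highest -0.15), and Bub1 at -1.46 in maple syrup replicate 6 (next lowest -0.19). Gmnn was at -2.65 in sugar mix replicate 6 (next lowest -0.33). The S phase score was at -0.77 in maple syrup replicate 6 (next lowest 0.10).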

How the results depend on the processing

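Counts of called genes and called members were 0 under all alternatives run, which include each array left out. The mean pair correlation ran from 0.50 (quantile normalization) to 0.83 (mean of all probe sets) for mitosis genes, and from 0.63 (without sugar mix replicate 4) to 0.73 with single arrays left out. For S phase genes it ran from 0.13 to 0.22 with single arrays left out. Centring each array on its median raised it to 0.62 and gave 0.69 for mitosis genes, both below the mean of 0.72 that all pairs of genes then had. The correlation of the 2 scores ran from 0.20 (without sugar mix replicate 5) to 0.45 with single arrays left out, and was 0.60 when the other mitosis and S phase lists were used in their place, an alternative chosen after seeing the data. The labels do not say whether replicate numbers pair the livers. The deviations of same-numbered livers had correlations from -0.03 to 0.12. With the replicate number as a block the number of called genes stayed at 0. With replicate means subtracted the mean pair correlation was 0.57 for mitosis genes, against 0.72 without this step. For S phase genes it was 0.06, against 0.19, and the correlation of the scores was 0.09, against 0.31. Whether the members follow the replicate number was not tested. The sign of g turned for Ccne1 under quantile normalization (-0.37) and for Kif2c under median centring (0.077). The median g of mitosis genes lay between -0.19 and 0.02 under the other alternatives and between -0.27 and 0.36 with single arrays left out, and that of S phase genes between 0.04 and 0.30 and between 0.09 and 0.53. The cause was not tested.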
